A study of Mus musculus with 8 samples.

Results

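The imprinted Dlk1-Dio3 domain is a cluster on mouse chromosome 12 in which protein-coding genes and long non-coding RNAs are read from opposite parental chromosomes. The genes taken here are the coding genes Dlk1, Rtl1 and Dio3 and the non-coding genes Meg3, Rian and Mirg, 6 of the 32780 genes that could be built from the deposited transcript tables, found by symbol after the transcripts were joined to GENCODE M21. All 6 had counts on both days and passed the filter on low counts, as did 15097 genes in all. Total RNA was measured in the mouse embryonic stem cell line TC1, wild-type per its labels, in 4 libraries at day 10 of differentiation and 4 libraries at day 0, before differentiation. The day 10 cells are labelled only as differentiated, no agent is named for them in the labels, and both groups are the same wild-type line. The series title places the samples in a study of cohesin during differentiation. Whether the libraries of 1 day are separate cultures is not stated, and p-values therefore cover only their spread, which may be technical.

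In this domain the paternal chromosome is known to express Dlk1, Rtl1 and Dio3, and the maternal chromosome Meg3, Rian, Mirg and a transcript opposite to Rtl1. An intergenic region between Dlk1 and Meg3, methylated on the paternal copy, sets which genes each chromosome reads, and the KRAB zinc finger protein ZFP57 is known to keep such methylation in embryonic stem cells. The non-coding genes carry many microRNAs and small nucleolar RNAs. In the GRCm38 positions of GENCODE M21, Dlk1 lies at chr12:109452823-109463336, Meg3 at chr12:109541001-109571726, Rian at chr12:109603940-109661716, Mirg at chr12:109729764-109749460 and Dio3 at chr12:110279068-110281097, all on the plus strand, and Rtl1 at chr12:109589193-109600330 on the minus strand. The libraries hold no parental information, so which allele was read was not measured.

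Depth was 13525255 to 17843651 estimated counts in the day 10 libraries and 11242568 to 15808039 in the day 0 libraries. All 10 pluripotency markers were lower at day 10, with summed levels of 165 to 220 CPM (counts scaled for library size) at day 10 and 3687 to 4129 CPM at day 0. Summed markers were 383 to 608 CPM at day 10 and 54.3 to 64.0 CPM at day 0 for cardiomyocytes, 516 to 640 CPM at day 10 and 46.4 to 51.9 CPM at day 0 for endothelium, and 64.1 to 234 CPM at day 10 and 243 to 282 CPM at day 0 for neurons. In edgeR's quasi-likelihood test with Benjamini-Hochberg adjustment and a threshold of 0.05, 82.1% of all tested genes were called, 42.7% higher and 39.4% lower at day 10. A call on a domain gene therefore says little by itself, and sizes and levels are given beside each.

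All 6 domain genes were higher at day 10, and in each of them the 4 day 10 libraries lay above the 4 day 0 libraries. Of all tested genes 42.7% were called higher, and in 40.8% all day 10 libraries lay above all day 0 libraries, against 37.2% where all lay below. Dio3 entered the test only through day 10, since 0 of 4 day 0 libraries reached the 0.707 CPM of the filter on low counts, while the other 5 genes reached it in every library. Against a change of 2-fold, tested with glmTreat, these 5 were again called higher, as was Dio3 with the filter (adjusted p = 1.14e-06) and without it (adjusted p = 2.43e-09). Of all tested genes 41.4% were called over 2-fold, 24.1% higher and 17.3% lower. Dlk1, with 367 to 679 CPM at day 10 and 12 to 20 counts per library at day 0, changed most, and Mirg least. The median log2 change of all tested genes was 0.06.

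**Figure D1:**
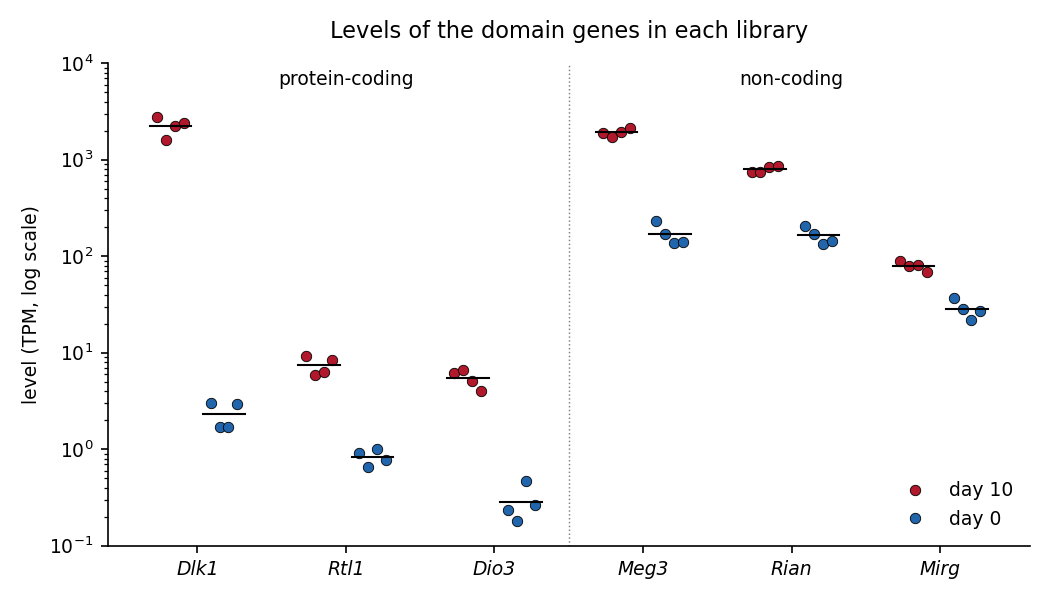
Level of each domain gene in TPM, a level per transcript length (log axis), in every library, day 10 in red left of day 0 in blue, with bars at the group means. In all 6 genes the day 10 points lie above the day 0 points. Dlk1 has 1605 to 2743 TPM at day 10 and 1.68 to 3.02 TPM at day 0. Of its day 10 TPM, 79.8% ± 1.03 (SD, n = 4) lies in a single short transcript model, Dlk1-209.

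Dlk1 encodes a transmembrane protein with EGF-like repeats, related to Notch ligands but without their receptor-activating domain, and is known as an inhibitor of fat cell formation and a marker of embryonic mesenchyme and hepatoblasts. Its level was 679, 367, 532 and 579 CPM in day 10 libraries 1 to 4, against 1.198, 0.905, 1.01 and 1.31 CPM in day 0 libraries 1 to 4. The day 0 values rest on 12 to 20 counts per library. The log2 change was 8.92 ± 0.27 (SE, n = 4 per day, edgeR adjusted p = 1.06e-09), a 483-fold difference with a 95% interval of 335 to 696. Among the 15097 tested genes this was the change of rank 140 in the upward direction. By TPM, Dlk1 ranked 32 of 32780 genes at day 10 and 11497 at day 0. The day 10 rank depends on Dlk1-209, a 483-base model of 2 stretches of the last coding exon. This model held 79.8% ± 1.03 of Dlk1 TPM at day 10 (SD, n = 4), and no rank was taken without it.

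Within day 10, Dlk1 was lowest in library 2 and highest in library 1. Of 10 fibroblast and mesenchyme markers, none at 0 on either day, 9 were called higher, where 42.7% of all tested genes were. Dcn, Lum and Tcf21 among them reached the filter's level in no day 0 library. Summed, the 10 markers had 11458, 6508, 9593 and 9255 CPM in day 10 libraries 1 to 4, and 133 to 152 CPM at day 0. Their lowest and highest day 10 libraries were those of Dlk1. The most abundant of them, the collagen genes Col3a1 and Col1a1, had 2789 ± 618 and 2369 ± 634 CPM at day 10 and 0.650 ± 0.254 and 3.23 ± 0.564 CPM at day 0 (SD, n = 4 per day). Summed visceral endoderm and hepatoblast markers ran the other way. They had 1028, 3114, 2303 and 2066 CPM in day 10 libraries 1 to 4 and 34.7 to 49.5 CPM at day 0. Of these 10 markers, 8 were called higher, beside the same 42.7% of all tested genes. Among the 10, 5 (Afp, Alb, Ttr, Apoa1 and Fga) reached the filter's level in no day 0 library, Alb with 0 counts there. Summed blood markers (300, 210, 275 and 282 CPM in day 10 libraries 1 to 4) and preadipocyte and adipocyte markers (169, 133, 149 and 156 CPM) also had their highest level in library 1 and their lowest in library 2, as Dlk1 did. Neuron markers stood apart in library 2, with 234 CPM against 64.1 to 77.0 CPM in the other day 10 libraries. Without day 10 library 2 or any other library, the log2 change of Dlk1 stayed between 8.77 and 9.06. In bulk RNA, more cells of a type and more RNA per cell cannot be told apart, and the part of these cell types in the level of Dlk1 was not tested.

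The promoter windows of Dlk1, Meg3 and Dio3 are shown because these genes had the largest changes of the coding and the non-coding kind. The windows span 250 bases before to 50 bases after the RefSeq start on GRCm38.p6, each on the plus strand, for Meg3 at the upstream of its 2 starts, and were searched on both strands for TGCCGC, the motif that ZFP57 binds when methylated, for TGACGTCA, the cAMP response element, and for TATAAA, the TATA motif. Capitals mark the matches, except for an overlapping one in the Meg3 window that is described below.
Dlk1 promoter, chr12:109452573-109452872: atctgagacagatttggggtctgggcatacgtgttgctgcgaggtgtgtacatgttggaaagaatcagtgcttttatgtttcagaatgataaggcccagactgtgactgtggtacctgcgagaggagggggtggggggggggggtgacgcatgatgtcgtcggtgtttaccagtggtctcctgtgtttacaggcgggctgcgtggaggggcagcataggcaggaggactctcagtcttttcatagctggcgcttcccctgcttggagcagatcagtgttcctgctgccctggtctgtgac
Meg3 promoter, chr12:109540746-109541045: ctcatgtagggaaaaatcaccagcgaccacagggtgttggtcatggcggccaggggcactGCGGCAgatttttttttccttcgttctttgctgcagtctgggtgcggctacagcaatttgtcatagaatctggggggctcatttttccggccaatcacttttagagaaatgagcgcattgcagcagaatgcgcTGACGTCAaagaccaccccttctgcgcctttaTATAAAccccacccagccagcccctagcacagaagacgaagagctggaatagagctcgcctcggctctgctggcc
Dio3 promoter, chr12:110278980-110279279: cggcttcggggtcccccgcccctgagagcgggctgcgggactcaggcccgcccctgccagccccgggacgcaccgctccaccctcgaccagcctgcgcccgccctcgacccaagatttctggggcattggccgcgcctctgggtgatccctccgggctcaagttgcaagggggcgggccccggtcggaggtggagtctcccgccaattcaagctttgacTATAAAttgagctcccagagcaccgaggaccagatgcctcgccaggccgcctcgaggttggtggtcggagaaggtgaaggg
The printed Meg3 window held all 3 motifs, and the window of the other Meg3 start, chr12:109545148-109545447, held none of them and 1 CpG dinucleotide. TGCCGC began 190 bases before the start, on the minus strand and so printed as its reverse complement, TGACGTCA 57 bases before and TATAAA 25 bases before. The reverse complement of TATAAA also occurs there, overlapping that TATAAA, and is not marked separately. The Dio3 window held TATAAA 31 bases before its start, and the Dlk1 window held none of the 3. Among 32851 mouse promoter windows of the same length, 11.6% held TGCCGC, 1.79% TGACGTCA and 13.6% TATAAA. The Dio3 window had 25 CpG dinucleotides, the printed Meg3 window 13 and Dlk1 9, against a median of 7 over all windows. A match describes letters in the window and shows no binding.

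Rtl1, a gene derived from a sushi-ichi retrotransposon and needed for the fetal vessels of the placenta, had 28.2, 17.2, 19.3 and 26.1 CPM in day 10 libraries 1 to 4, against 3.59, 2.58, 4.29 and 3.21 CPM in day 0 libraries 1 to 4. The lowest day 10 library thus stood well above the highest day 0 library. The log2 change was 2.74 ± 0.20 (SE, n = 4 per day, edgeR adjusted p = 1.40e-08). The coding exon of Rtl1 faces microRNA hairpins of the plus strand. No source used here says that strand entered the counting, so reads of Rtl1 and of its antisense partner cannot be told apart.

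The microRNAs opposite Rtl1 are shown because their sites lie inside the exon whose counts make up the Rtl1 value. RefSeq places 6 hairpins there on the opposite strand. From each the mature form follows 5′ to 3′, with bases 2 to 8, the seed, in capitals.
miR-431-5p: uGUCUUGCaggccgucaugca
miR-433-3p: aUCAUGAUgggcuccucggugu
miR-127-3p: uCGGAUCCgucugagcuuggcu
miR-434-3p: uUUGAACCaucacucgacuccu
miR-432: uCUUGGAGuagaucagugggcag
miR-136-5p: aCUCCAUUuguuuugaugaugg
No pair of these 6 shares a seed. In the whole domain RefSeq lists 114 mature forms with 104 distinct seeds, miR-3070-5p being entered for both Mir3070a and Mir3070b. It lists 61 microRNA genes there, 57 of them on the plus strand and 58 with a hairpin entry. Of these genes, 14 lie within Mirg, 9 of them in its exons, 3 lie within introns of Rian, 2 within Meg3, 7 within Rtl1 and 35 between the 6 genes. Some seeds recur in the stretch before Mirg, as these forms show.
miR-379-5p: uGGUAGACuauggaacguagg
miR-1193-5p: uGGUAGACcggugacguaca
miR-379-3p: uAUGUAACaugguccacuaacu
miR-411-3p: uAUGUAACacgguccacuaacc
The first of these pairs shares GGUAGAC, with other microRNA genes lying between its members, and the second, of adjacent genes, shares AUGUAAC. Levels of mature microRNAs were not analysed here.

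Dio3 encodes the type 3 deiodinase, which inactivates thyroid hormone. It was the least abundant of the 6 genes, with 5.67, 5.74, 4.60 and 3.70 CPM in day 10 libraries 1 to 4, against 0.277, 0.209, 0.589 and 0.327 CPM in day 0 libraries 1 to 4. Its day 0 values rest on 3 to 7 counts per library. The groups did not overlap, and the log2 change was 3.80 ± 0.33 (SE, n = 4 per day, edgeR adjusted p = 9.16e-08). A difference was built into its entry in the test, as described above, and without the filter its log2 change was 3.79 ± 0.36 (SE, edgeR adjusted p = 7.44e-12). Its divergent partner Dio3os had 34 counts at day 10 and 0 at day 0 and was not tested.

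Meg3, a long non-coding RNA known as a growth suppressor and as the maternal counterpart of Dlk1, was the most abundant of the non-coding genes at day 10. Its level was 1695, 1459, 1698 and 1865 CPM in day 10 libraries 1 to 4, against 350, 303, 226 and 232 CPM in day 0 libraries 1 to 4. The day 10 libraries lay close together, and all stood far above day 0. The log2 change was 2.60 ± 0.15 (SE, n = 4 per day, edgeR adjusted p = 3.37e-08), a 6.05-fold difference with a 95% interval of 4.96 to 7.39.

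Rian, host of box C/D small nucleolar RNAs, had 1111, 1037, 1203 and 1288 CPM in day 10 libraries 1 to 4, against 398, 369, 299 and 309 CPM in day 0 libraries 1 to 4. The log2 change was 1.75 ± 0.10 (SE, n = 4 per day, edgeR adjusted p = 2.49e-09). M21 places 13 of the 23 small nucleolar RNA genes of the domain inside Rian, all on its strand. Mirg spans 14 of the 61 microRNA genes of the domain. It had 55.2 to 65.1 CPM at day 10 and 21.6 to 30.9 CPM at day 0. Its log2 change was 1.17 ± 0.10 (SE, n = 4 per day, edgeR adjusted p = 1.09e-07), and its call over 2-fold was marginal (glmTreat adjusted p = 0.041) and was lost with an offset for transcript length (adjusted p = 0.218). Among 9914 long non-coding genes ordered by TPM, Meg3, Rian and Mirg held ranks 3, 7 and 23 at day 10 and 10, 11 and 53 at day 0.

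The non-coding genes did not change in equal measure. In TPM, a level per length, Meg3 was 2.29 to 2.57 times Rian at day 10 and 0.963 to 1.12 times Rian at day 0. Rian was 8.30 to 12.5 times Mirg at day 10 and 5.38 to 6.17 times at day 0, and Meg3 was 21.3 to 31.6 times Mirg at day 10 and 5.18 to 6.29 times at day 0. The ratios were smaller in counts per exon length. There Meg3 was 1.42 to 1.54 times Rian at day 10 and 0.756 to 0.885 times at day 0. Rian was 6.83 to 9.33 times Mirg at day 10 and 4.90 to 5.53 times at day 0. Meg3 was 10.5 to 13.6 times Mirg at day 10 and 3.70 to 4.57 times at day 0. On neither scale did the days overlap in any of these 3 ratios. Among the 3 genes the log2 change was largest for Meg3, then Rian, then Mirg.

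The coding genes also kept no fixed proportion. Dlk1 was 272 to 354 times Rtl1 in TPM at day 10 and 1.66 to 3.81 times at day 0. The size of this ratio depends on the scale, with 55.0 to 68.6 times at day 10 and 0.909 to 1.63 times at day 0 in TPM without Dlk1-209, a 483-base Dlk1 model. In counts per exon length it was 23.9 to 31.0 times at day 10 and 0.264 to 0.459 times at day 0. Meg3, the partner of Dlk1 on the other parental chromosome, was 0.693 to 1.07 times Dlk1 in TPM at day 10 and 47.9 to 100.4 times Dlk1 at day 0. Without Dlk1-209, Meg3 stood above Dlk1 in every day 10 library, at 3.21 to 5.28 times its TPM, and at 149 to 237 times at day 0. The 3 non-coding genes together made up 49.7, 61.1, 56.2 and 55.8% of the domain's TPM in day 10 libraries 1 to 4, against 99.1, 99.3, 98.9 and 98.8% in day 0 libraries 1 to 4. The mean share was 55.7% ± 4.65 at day 10 and 99.03% ± 0.245 at day 0 (SD, n = 4 per day). This day 10 value depends on Dlk1-209, without which the share was 85.8% ± 2.80 at day 10 and 99.4% ± 0.164 at day 0. By estimated counts it was 83.8% ± 2.74 at day 10 and 99.2% ± 0.238 at day 0. On every scale the non-coding share was lower at day 10 with no overlap, while its size at day 10 ran from 55.7 to 85.8%. Summed over the 6 genes, the domain made up 5070 ± 633 TPM at day 10 and 365 ± 80.5 TPM at day 0 (SD, n = 4 per day). Without Dlk1-209 the sum was 3274 ± 286 TPM at day 10 and 364 ± 80.4 TPM at day 0, and by estimated counts the domain held 0.354% ± 0.0330 of all matched counts at day 10 and 0.0636% ± 0.0107 at day 0.

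**Figure D2:**
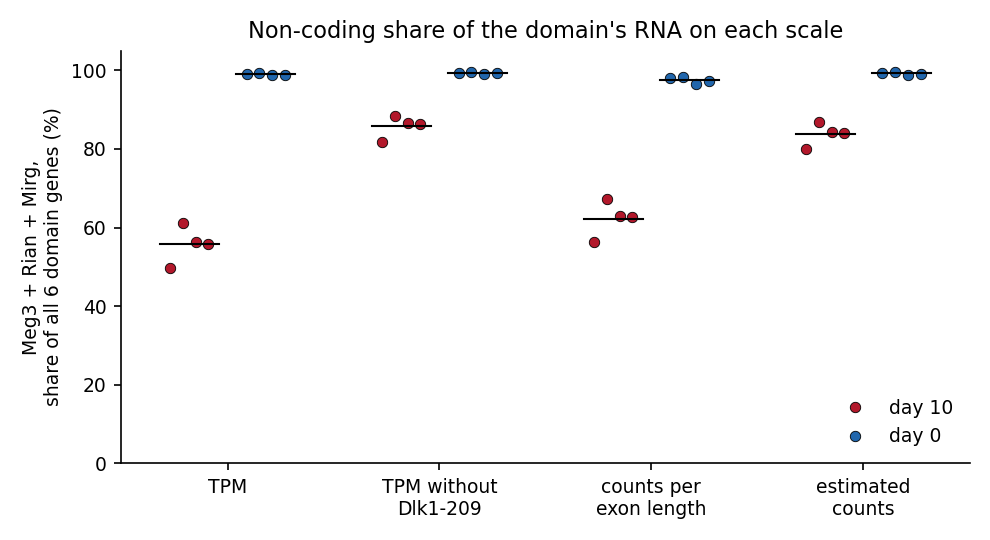
Share of Meg3, Rian and Mirg in the sum of the 6 domain genes in every library, day 10 in red left of day 0 in blue with bars at the means, on 4 scales. The day 10 mean runs from 55.7% in TPM to 85.8% without Dlk1-209, and the day 0 mean stays at 97.6 to 99.4%.

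The 6 genes have 56 transcript models, of which 8 had no counts and 38 passed the filter. Of these, 33 were called higher at day 10, 0 lower and 5 were not called, 9 of the 38 having reached the filter's level in no day 0 library, against 26.8% higher and 23.8% lower over 41067 tested transcripts. Relative use of a transcript within its gene was tested with edgeR's diffSpliceDGE. Of 36 domain transcripts tested, 3 were used more and 4 less at day 10, where 5.97% of 35947 tested transcripts were called, 3.17% as used more and 2.79% as used less. The 7 lay in Meg3, Rian and Dlk1, and Mirg had 0 of 7 called.

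Within Meg3, the short 5′ model took a larger share at day 10 and 2 longer models a smaller one. Meg3-205, of 1531 bases, held 43.4, 46.3, 48.2 and 46.6% of the gene's counts in day 10 libraries 1 to 4, against 29.0, 24.7, 26.2 and 24.0% in day 0 libraries 1 to 4. Its log2 change in use was 0.82 (diffSpliceDGE adjusted p = 0.00274). Meg3-206, a long spliced model, fell to 2.96% ± 0.907 at day 10, against 10.4% ± 2.98 at day 0 (SD, n = 4 per day; adjusted p = 3.99e-06). Meg3-209, of 14548 bases, fell to 29.5% ± 2.56 at day 10, against 47.8% ± 2.65 at day 0 (SD, n = 4 per day; adjusted p = 0.0132), a call that was lost without day 10 library 3 (adjusted p = 0.0835) or library 4 (adjusted p = 0.0622) and without a filter on low counts (adjusted p = 0.0613), while the direction stayed. Meg3-211 held 19.9% ± 1.64 at day 10 and 14.5% ± 4.06 at day 0 and was not called (adjusted p = 0.151). On log2(TPM + 1), which divides counts by length, the log2 change of Meg3 was 3.53 and on counts 2.60, or 3.13 and 2.54 relative to the median gene on each scale.

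The main models of Rian were not called in use, with Rian-201 at 44.7% ± 1.71 at day 10 and 40.5% ± 1.29 at day 0, and Rian-209 at 19.7% ± 2.09 at day 10 and 21.7% ± 1.59 at day 0 (SD, n = 4 per day). Rian-213, a spliced model of 8 exons near the 3′ end, held 5.58, 6.93, 4.88 and 4.93% of counts in day 10 libraries 1 to 4, against 1.56, 0, 0.152 and 1.03% in day 0 libraries 1 to 4, and its log2 change in use was 2.97 (diffSpliceDGE adjusted p = 1.12e-07). Rian-208 held 4.22% ± 1.12 at day 10 and 12.3% ± 1.61 at day 0 (SD, n = 4 per day; diffSpliceDGE adjusted p = 0.000918). The deposited lengths of Rian-208 (3648 bases) and Rian-209 (5099 bases) exceed their M21 spans, chr12:109649171-109650351 and chr12:109632798-109636273. Their deposited models thus differ from the M21 models of the same identifier. Rian-217, named after its values were seen since it stayed under the 5% set for naming, was also used more at day 10 (adjusted p = 0.0377). The largest Mirg model, Mirg-201, held 44.2% ± 2.26 at day 10 and 39.1% ± 2.43 at day 0.

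**Figure D3:**
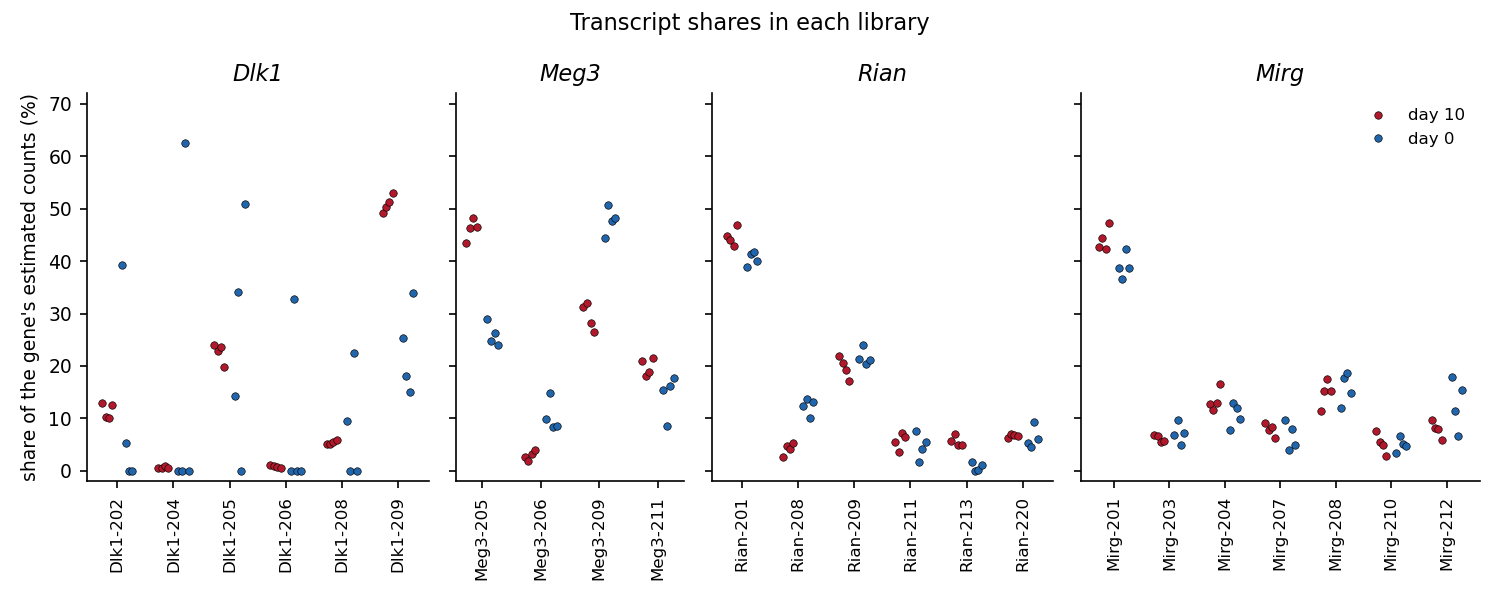
Share of each gene's estimated counts held by its main transcript models (at least 5% on either day) in every library, day 10 in red left of day 0 in blue. Meg3-205 sits at 43.4 to 48.2% at day 10 and 24.0 to 29.0% at day 0, and the day 0 shares of Dlk1 scatter widely and rest on 12 to 20 counts per library.

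Dlk1 transcripts could be described only at day 10, where counts are ample. Alternative splicing within the last coding exon of Dlk1 removes a stretch next to the membrane, and forms that keep it are known to release a soluble protein. The form with the unbroken exon, which encodes 385 amino acids, held 23.9, 22.8, 23.6 and 19.7% of Dlk1 counts in day 10 libraries 1 to 4. Forms lacking 50 to 95 codons held 72.9, 71.4, 72.9 and 76.7% in the same libraries. Most of the shorter group is Dlk1-209, with 51.0% ± 1.66 of counts at day 10 (SD, n = 4). This model covers only 2 stretches of the last coding exon. Without Dlk1-209 the shorter forms held 23.7, 21.02, 21.6 and 23.7% of Dlk1 counts in day 10 libraries 1 to 4. By counts they thus exceeded the unbroken form in 1 library of 4 without Dlk1-209 and in all 4 with it. In TPM, a level per length, the unbroken form held 7.17% ± 0.685 of Dlk1 at day 10. The shorter form Dlk1-202 alone held 7.93% ± 1.08 (SD, n = 4). Which group is larger at day 10 without Dlk1-209 thus depends on the scale. At day 0 the groups rest on 37.0 counts for the shorter forms and 19.5 for the unbroken form, over all 4 libraries, and no comparison of days is made. Dlk1-204 was called as used less at day 10 (adjusted p = 0.00877), which rests on day 0 library 3 and was lost without it (adjusted p = 0.977).

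The domain spans 828 kb from the start of Dlk1 to the end of Dio3. M21 places 10 further genes inside it, of which 2 were tested and both were called higher, where 42.7% of all tested genes were, Gm26945 with a log2 change of 1.61 ± 0.14 (adjusted p = 1.71e-07) and B830012L14Rik with 1.84 ± 0.15 (adjusted p = 5.49e-08; edgeR, SE, n = 4 per day). Both are non-coding genes of the plus strand. Gm26945 starts within the span of Rian on the same strand, and B830012L14Rik starts between Rian and Mirg. The 8 tested neighbours outside the domain showed no shared direction. In edgeR's test Begain (1.97) and Dync1h1 (0.29) were called higher, Wars (-1.08), Wdr25 (-1.16), Ppp2r5c (-0.75) and Hsp90aa1 (-2.33) lower, and Yy1, a zinc finger factor, was not called at 0.14 ± 0.07 (adjusted p = 0.0591). Gm19605, a non-coding gene named after its values were seen, was not called either, at 0.13 ± 0.18 (adjusted p = 0.527), and Slc25a29, with 40 counts at day 10 and 8 at day 0, was not tested.

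**Figure D4:**
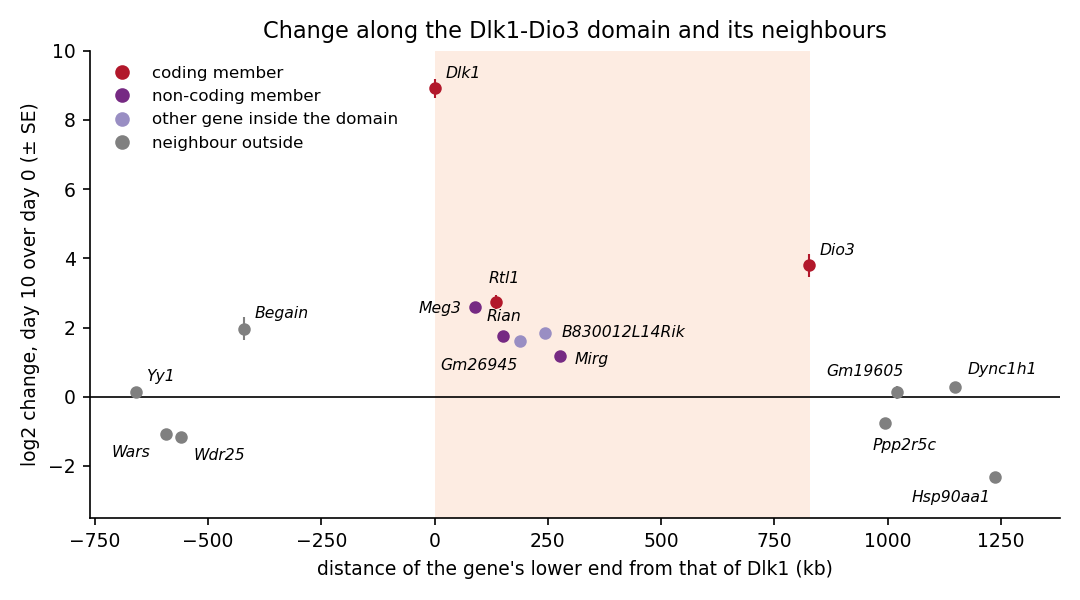
Log2 change, day 10 over day 0, with its SE for tested genes against distance from the lower end of Dlk1 in kb, with the domain shaded. Genes inside the domain lie at 1.17 to 8.92, and the neighbours outside at -2.33 to 1.97.

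Of 20 listed imprint maintenance and control-region factors, all tested, 16 were lower, 3 higher and 1 not called, where 39.4% of all tested genes were called lower and 42.7% higher. Their median log2 change was -1.47 against 0.06 over all genes, and 2 of the 20, Dnmt3l and Dppa3, reached the filter's level in no day 10 library. Zfp57 had 60.6 ± 3.27 CPM at day 10 and 288.9 ± 11.4 CPM at day 0 (SD, n = 4 per day; log2 change -2.25, edgeR adjusted p = 8.22e-13). Tet1, a methylcytosine oxidase, had 122.3 ± 11.2 CPM at day 10 and 1815 ± 138.7 CPM at day 0, and Zfp42, a pluripotency zinc finger gene, changed by -8.80. The oxidase gene Tet3 was higher, with 255.7 ± 4.15 CPM at day 10 and 28.3 ± 1.99 CPM at day 0 (SD, n = 4 per day), as were Aff3 (1.89), whose protein is known to bind the intergenic control region of this domain, and Zfp445 (0.37).

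Of 25 tested imprinted genes of other domains, 19 were called higher, 5 lower and 1 was not called, where 42.7% of all tested genes were called higher and 39.4% lower. Their median log2 change was 2.68, and 1 of the 25, Magel2, reached the filter's level in no day 0 library. H19, the maternally expressed non-coding partner of Igf2, had 4546 ± 659 CPM at day 10 and 28.9 ± 2.75 CPM at day 0 (SD, n = 4 per day; log2 change 7.30, edgeR adjusted p = 6.52e-14). Grb10 (3.02) and Igf2r (3.48), which both restrain growth, were also higher. Snrpn (-2.04), Phlda2 (-2.19) and Nespas (-1.09) were lower.

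Among genes of the same retrotransposon family as Rtl1, 10 were measured and 7 tested. Of these, Rtl3 (159 counts at day 10 and 1 at day 0) and Rtl4 (222 counts at day 10 and 1 at day 0) entered the test only through day 10, and the other 5 were called higher, where 42.7% of all tested genes were. They include Peg10 (2.15), another imprinted placental gene, and Rtl5 (4.10). Of 11 tested genes of Notch signalling and Dlk1 partners, 9 were higher, 1 lower and 1 not called. Of all tested genes 42.7% were called higher and 39.4% lower. Among the 9, Sox9 (7.04) reached the filter's level in no day 0 library and so entered the test only through day 10. Notch2 was at 1.72, Adam10, a protease that sheds Notch and its ligands, at 1.45, and Notch4 at -1.62. Of 16 tested genes of thyroid hormone handling, 8 were higher, 6 lower and 2 not called, with a median of 0.16, near the shares and the median of all tested genes. Dio2 encodes the enzyme that activates the hormone that Dio3 inactivates. Its level was 16.1 ± 3.27 CPM at day 10 and 0.0655 ± 0.131 CPM at day 0 (SD, n = 4 per day). Dio2 reached the filter's level in no day 0 library and so entered the test only through day 10. The receptor genes Thra (2.91) and Rxra (2.28) were higher. Sephs2 (-1.68) and Secisbp2 (-1.07), which serve selenoprotein synthesis, and Klf9 (-1.53), a thyroid hormone target, were lower. Of 13 other long non-coding RNAs tested, 6 were higher, 6 lower and 1 not called, with a median of 0.11, again near those of all tested genes. Malat1 (1.47) and Hand2os1 (10.28) were higher, Tsix (-6.16) and Mir17hg (-0.78) lower. Fendrr was called higher with 753 counts at day 10 and 0 at day 0. Lncenc1 was called lower with 0 counts at day 10 and 368 at day 0. Fendrr and Hand2os1 reached the filter's level in no day 0 library, and Lncenc1 in no day 10 library.

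**Figure D5:**
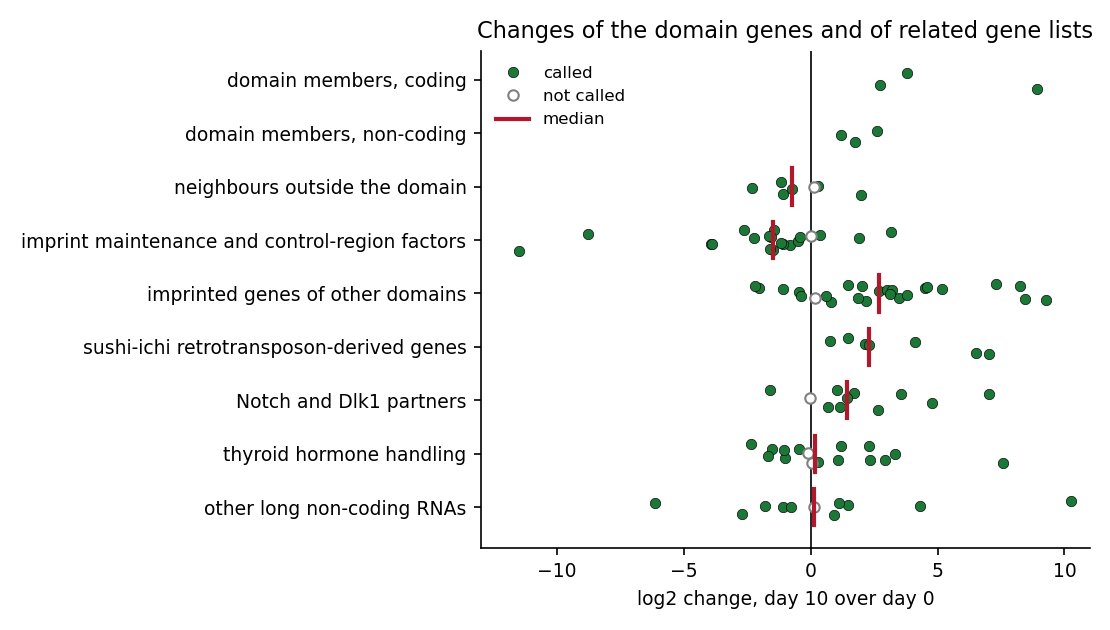
Log2 change, day 10 over day 0, of each tested gene of the domain and of the related lists, filled where called and open where not, with red bars at the medians of the genes shown, except for the domain genes, which are 3 per row. Genes with 0 counts on either day are left out, and the points are spread up and down only to keep them apart.

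The genes outside the domain most like each domain gene were taken by the root-mean-square difference of centred log2 CPM over the 8 libraries, a measure that the change between days dominates. For Meg3 they were Hecw2 (0.0955) and Spaca6 (0.114), for Rian Hook3 (0.0892) and Slc4a2 (0.0918), and for Mirg Magi1 (0.0728) and Fchsd2 (0.0845). For Rtl1 they were Rgs10 (0.177) and Paqr7 (0.184), and for Dio3 Gnao1 (0.206) and Inka1 (0.264). For Dlk1 they were Gnb3 (0.177) and Lamc3 (0.178), which both had 0 counts at day 0, so that this likeness is set by the pseudocount of 0.01 CPM. Limiting the search to 13920 genes with a count in every library, a change made after those values were seen, gave Igf2 (0.219) and Nrp1 (0.290) for Dlk1 and left the genes named for the other 5 as they were.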

How the data were processed

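Total RNA was sequenced in 8 libraries, 4 per day. The authors deposited estimated counts and TPM per transcript, 126126 per library, per the file headers. The submitters' processing notes name kallisto, and the build, annotation and strand setting were not given in the sources used here. Counts as deposited are estimated and unscaled, while the deposited TPM values are scaled for effective length. Reads shared by overlapping models are split by estimation, so transcript shares are estimates.

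By identifier without version, 117992 transcripts (93.6%) matched GENCODE M21, whose GRCm38 positions are printed. The 8134 others held 1.15 to 1.23% of counts and were left out. Counts were summed per gene, rounded and tested over all genes with edgeR 4.0.16 under R 4.3.3 (filterByExpr, TMM, robust quasi-likelihood fit, Benjamini-Hochberg, threshold 0.05). SE accompanies log2 changes, and CPM is scaled by TMM. DESeq2 1.42.0 and limma 3.58.1 served alternatives, with pseudocounts of 1 and 0.1 TPM. The scripts were tested on simulated data. Intervals cover 95%.

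The domain genes and the gene lists were chosen with earlier results of these data known. Named were the 6 genes, their transcripts of at least 5% of counts, up to 3 called genes per list and direction with the smallest p, all measured neighbours of the list and, per gene, the 2 most alike outside the domain. Libraries of a day differed by more than sampling noise, so none was counted as a duplicate.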

Additional observations from a re-analysis of the deposited data

Results flagged for a closer look

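Of 60 groups of 4 libraries examined for a library far from the other 3, 4 had one, all of them shares of Dlk1 transcripts, and chance marks about 1 group in 20. At day 10, Dlk1-204 held 0.808% of Dlk1 counts in library 3 and 0.451 to 0.474% in the others. At day 0, Dlk1-202 held 39.2% in library 1 and at most 5.34% in the others, Dlk1-204 held 62.5% in library 3 and 0% in the others, and Dlk1-206 held 32.7% in library 2 and under 0.0001% in the others. The day 0 shares rest on 12 to 20 Dlk1 counts per library. The levels of the 6 genes and the non-coding share held no such library on either day.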

How the results depend on the processing

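The 6 domain genes were called higher at day 10 under all 17 alternatives, with log2 changes of 8.77 to 9.88 for Dlk1, 2.19 to 3.01 for Rtl1, 2.31 to 4.13 for Dio3, 2.501 to 3.54 for Meg3, 1.68 to 2.30 for Rian and 1.08 to 1.495 for Mirg. On log2(TPM + 1), the median of all genes was 0.40 against 0.06 on counts, and 65.8% of calls were higher against 52.0% on counts. The call of Mirg over 2-fold was lost with upper quartile scaling (1.16, adjusted p = 0.051), with the length offset (1.09, adjusted p = 0.218) and without any of 6 libraries (1.08 to 1.25 over all 8), and the cause was not tested. The non-coding share was 83.8% of estimated counts at day 10. Per exon length, a scale added after the data were seen like that without Dlk1-209, it was 62.3% at day 10 and 97.6% at day 0. Without Dlk1-209 it was 85.8% at day 10 and 99.4% at day 0, without Meg3 28.4 and 98.2%, and without Rian 47.4 and 98.2%. The log2 ratio of Dlk1 to Meg3 at day 10 was 0.20 in TPM and -2.11 without Dlk1-209.

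Relative use of transcripts that were not called changed sign in 8 models, with values between -0.49 and 1.89 for Dlk1-202 (main -0.0012; 0.063 without a filter and 0.086 with the replicate block), -0.76 and 0.47 for Dlk1-205, -3.79 and 0.035 for Dlk1-206, -1.08 and 0.76 for Dlk1-208, -0.015 and 0.68 for Rian-211, -0.0013 and 0.35 for Rian-220, -0.23 and 0.012 for Mirg-208, and -0.21 and 0.24 for Mirg-210 (-0.040 with the block), leaving out each library in turn. The replicate numbers do not pair the libraries by any label, and deviations of same-numbered libraries correlated at r = 0.033, 0.065, 0.046 and -0.0089 over 14338 genes. With the replicate number as a block, 12298 genes were called against 12399, Mirg changed by 1.18 and Dlk1 by 8.89, and Meg3-209 (adjusted p = 0.0523) and Dlk1-204 (adjusted p = 0.471) lost their calls of use. Depth limits Dlk1 and Dio3 at day 0, with 58 and 18 counts over 4 libraries.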
